A study of Rattus norvegicus with 10 samples.

Results

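The alpha-2u globulins are small secreted lipocalins of the rat, made in the liver of adult males and passed into the urine, and 6 of their genes were measured here in the livers of male rats given a chemical carcinogen and a liver toxin. The genes are Obp3, Mup4, Mup5, Mup4l1, Mup4l3 and Mup4l4. They were taken by gene symbol, every array probe whose RefSeq accession carries 1 of these symbols being a member, which gave 6 probes of 41012, 1 for each gene, among 13826 genes named on the array. The values that chose the family were its difference between DEN/TAA and control livers, its spread between rats and the agreement of its probes in these same arrays, so all of these are given as descriptions with no test.

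Liver RNA of 10 male Wistar rats was hybridised to Agilent whole rat genome oligonucleotide arrays in 1 colour (Cy3), with 150 ng of RNA and 1 array per rat. The 5 DEN/TAA rats received a 200 mg/kg intraperitoneal dose of diethylnitrosamine (DEN), a DNA-alkylating carcinogen, at 6 weeks of age. Starting 2 weeks after that dose they received intraperitoneal thioacetamide (TAA), a toxin that hepatocytes activate, at 200 mg/kg in cycles of 3 weeks with treatment and 1 week without, over 23 weeks. The 5 control rats received vehicle alone. All are labelled as 23 weeks old, which is younger than 23 weeks of treatment begun after 6 weeks of age would make them, so the length of treatment is not settled here. The labels describe separate animals within each group, and the number of arrays, 5 per group, limits the precision of every value.

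Alpha-2u globulins fold into a barrel that holds small hydrophobic molecules, carry scent compounds in male urine, and are known for accumulating in the male rat kidney when such compounds bind them. Their production in the liver is switched on at puberty by androgen and by the pulsed growth hormone release of the male, and also depends on glucocorticoid and thyroid hormone. Hepatocytes make them, so a liver with fewer hepatocytes and a liver with less of this RNA in each hepatocyte cannot be told apart in bulk tissue such as this.

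The 6 genes lie in 1 cluster on rat chromosome 5 (RefSeq, assembly GRCr8), in the order Obp3, Mup4l4, Mup4, Mup5, Mup4l1 and Mup4l3. That stretch holds 26 annotated genes, 11 of them pseudogenes. The annotated starts are on the minus strand, and the 300 bases around each (250 before and 50 from the start) were 87.7% to 97.2% identical over the 15 pairs of members, across 276 to 300 aligned positions. Obp3 and Mup5 were the most alike and Mup4l1 and Mup4l4 the least. The 250 bases before the start are shown for 3 members because they carry each motif found in the family: Obp3 (chr5:79640676-79640925), Mup4 (chr5:79759497-79759746) and Mup4l1 (chr5:80226535-80226784). Capitals mark the matches to the motifs described after them.
Obp3: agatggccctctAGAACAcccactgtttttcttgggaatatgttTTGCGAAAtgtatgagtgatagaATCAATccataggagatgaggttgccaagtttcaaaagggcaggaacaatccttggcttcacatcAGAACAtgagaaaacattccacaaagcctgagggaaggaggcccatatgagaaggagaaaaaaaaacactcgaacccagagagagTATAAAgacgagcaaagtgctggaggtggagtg
Mup4: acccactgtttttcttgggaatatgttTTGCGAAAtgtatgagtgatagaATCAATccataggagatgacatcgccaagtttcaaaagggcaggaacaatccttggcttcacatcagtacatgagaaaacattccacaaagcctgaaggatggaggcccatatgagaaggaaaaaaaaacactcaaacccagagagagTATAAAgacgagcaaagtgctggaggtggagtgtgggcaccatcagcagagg
Mup4l1: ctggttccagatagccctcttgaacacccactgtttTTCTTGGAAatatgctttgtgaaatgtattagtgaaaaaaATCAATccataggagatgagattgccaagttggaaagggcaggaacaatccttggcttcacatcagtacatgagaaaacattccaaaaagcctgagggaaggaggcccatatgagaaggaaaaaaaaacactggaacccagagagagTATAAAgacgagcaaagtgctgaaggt

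Motif letters were searched on both strands of the 300-base windows, and no match in a member overlapped another. The TATA box (TATAAA), which places the start of transcription, was present in 6 of 6 members, 27 to 52 bases before the annotated start, and in 14.2% of all 33469 promoter windows of that length. The core letters of HNF6, the factor encoded by Onecut1 (ATCAAT), were also present in 6 of 6, at 174 to 208 bases before the start, against 8.06% of all windows. A C/EBP motif (TTGCNNAA) was found in 5 of 6, the exception being Mup4l1, against 10.6% of all windows. Mup4l1 alone carried the STAT5 motif (TTCNNNGAA), 214 bases before its start, which 8.87% of all windows hold. STAT5 is the factor that carries the growth hormone signal to genes in hepatocytes. The steroid receptor core AGAACA was found only in Obp3, 238 and 118 bases before its start, and in 20.7% of all windows. No member window held the letters of the full steroid receptor palindrome (0.0149% of all windows) or of FOXA (GTAAACA, 3.78%). These matches describe letters in a window and do not show that a factor binds there. The 6 windows are 87.7% to 97.2% identical, so matches they share are not independent. The shares of all windows are given as background, and enrichment was not tested.

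**Figure D1:**
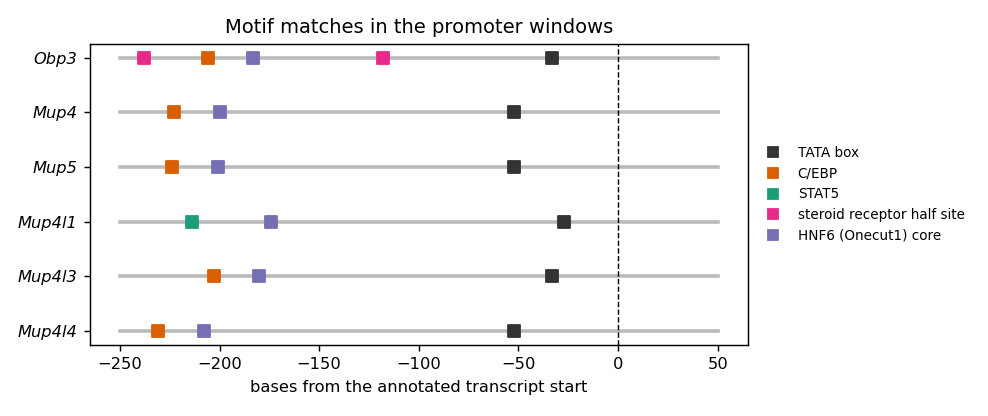
Positions of motif matches in the 300-base promoter window of each member, with the x axis in bases from the annotated transcript start (dashed line). Each square marks the first base of a match. A TATA box lies 27 to 52 bases and an HNF6 core 174 to 208 bases before the start in all 6 members, and Mup4l1 alone has a STAT5 motif.

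Signal was analysed as the log2 processed signal minus the 75th percentile of the same array, taken over probes well above background on all arrays, so that 0 stands for that percentile. The control arrays were dimmer, with 36.1% to 46.6% of spots well above background in DEN/TAA livers against 16.5% to 32.9% in control livers. Across the 6844 genes tested the median difference between DEN/TAA and control was 0.33 on the log2 scale, and it was -0.28, 0.18, 0.021, 0.99 and 0.081 with normexp background correction, quantile normalisation, the percentile over all probes, scaling to the spike-in RNA and the authors' table. The tissue label was checked against hepatocyte markers, and all 6 (Alb, Ttr, Apoa1, Serpina1, Tf and Fgb) were detected on each of the 10 arrays. The genes Cyp2c11 and Hsd3b5, typical of male rat liver, were detected throughout as well. Car3 and Sult1e1, also male-biased, were detected on 4 of 5 DEN/TAA and 5 of 5 control arrays. Cyp2c12, a gene of female rat liver, was detected on 5 of 5 DEN/TAA and 2 of 5 control arrays. The salivary gland gene Smr3b, from another tissue that makes alpha-2u globulin, was above background on no array.

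All 6 members were lower in every DEN/TAA liver than in any control liver, by 102-fold to 463-fold on average. The upper end is Obp3, not detected in 2 DEN/TAA rats, which was 280-fold lower with those arrays raised to the lowest signal detected on each. The size of the gap differed widely between the DEN/TAA rats, from 4.80 to 11.11 log2 units below the control mean for the average of the 6 genes, while the control rats lay close together. No member overlapped between the groups, where 11.4% of all genes tested were lower in DEN/TAA without overlap. Since the members were chosen on this difference, nothing is read from their count. The sign of the difference was the same for all 6 members in each of 6 scalings of the arrays and within each of 3 slides.

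Mup5, a major urinary protein, had processed signals of 20565, 5907, 1073, 213 and 28333 in DEN/TAA rats 1 to 5, against 125070, 155044, 166150, 167007 and 95236 in control rats 1 to 5. Scaled to each array, these were 1.64, 0.55, -1.82, -4.44 and 2.19 in DEN/TAA livers against 6.14, 6.04, 6.16, 6.17 and 6.96 in control livers on the log2 scale. DEN/TAA rat 4 stood lowest and rats 1 and 5 highest, and even the highest was below every control rat. The means were -0.37 ± 2.74 in DEN/TAA and 6.29 ± 0.37 in control (SD, n = 5 each), a difference of -6.67 (SE 1.24), or 102-fold.

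Mup4l4 followed nearly the same course. Its scaled log2 signals were 1.68, 0.73, -1.80, -4.33 and 2.26 in DEN/TAA rats 1 to 5 and 6.41, 6.17, 6.38, 5.94 and 7.18 in control rats 1 to 5. The ranking of the DEN/TAA rats was the one seen for Mup5, and control rat 5 was the highest control rat for both genes. The difference was -6.71 (SE 1.24), or 105-fold.

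Mup4l1, the member with a STAT5 motif and without the C/EBP motif in the window shown, read 0.71, -0.40, -2.62, -5.40 and 1.28 in DEN/TAA livers against 6.01, 5.95, 6.26, 6.36 and 6.10 in control livers. The control rats were nearly level, with an SD of 0.17 and a 1.33-fold range, while the DEN/TAA rats spanned 102-fold. The difference was -7.42 (SE 1.23), or 171-fold.

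Mup4l3 read 0.29, -1.41, -3.16, -6.0 and 1.5 in DEN/TAA livers against 5.28, 5.30, 5.66, 5.87 and 5.95 in control livers. It had the widest range among the DEN/TAA rats of any member, 181-fold, against 1.59-fold among the control rats. The difference was -7.37 (SE 1.33), or 165-fold.

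Obp3, annotated as an odorant binding protein, and Mup4 were at the limit of detection in the lowest DEN/TAA rats. Obp3 was detected (well above background) on 3 of 5 DEN/TAA but 5 of 5 control arrays, and read -4.79, -5.54, -8.65, -8.19 and -4.0 in DEN/TAA livers against 1.73, 1.92, 3.37, 2.91 and 3.16 in control livers. The processed signals behind these were 238, 86.3, 9.45, 15.8 and 387 in DEN/TAA rats and 5884 to 23938 in control rats. DEN/TAA rats 3 and 4 are the arrays not above background, so their order for this gene has no meaning. The difference was -8.85 (SE 0.99), or 463-fold, and -8.13 with the 2 undetected arrays raised to the lowest signal detected on each.

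Mup4 was detected on 4 of 5 DEN/TAA arrays, the exception being rat 4, and on 5 of 5 control arrays. It read -3.50, -5.02, -6.31, -9.03 and -2.74 in DEN/TAA livers against 1.69, 1.93, 2.73, 2.59 and 2.13 in control livers. The highest DEN/TAA rat was still 21.5-fold below the lowest control rat. The difference was -7.54 (SE 1.13), or 186-fold, and -7.08 with the undetected array raised in the same way.

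**Figure D2:**
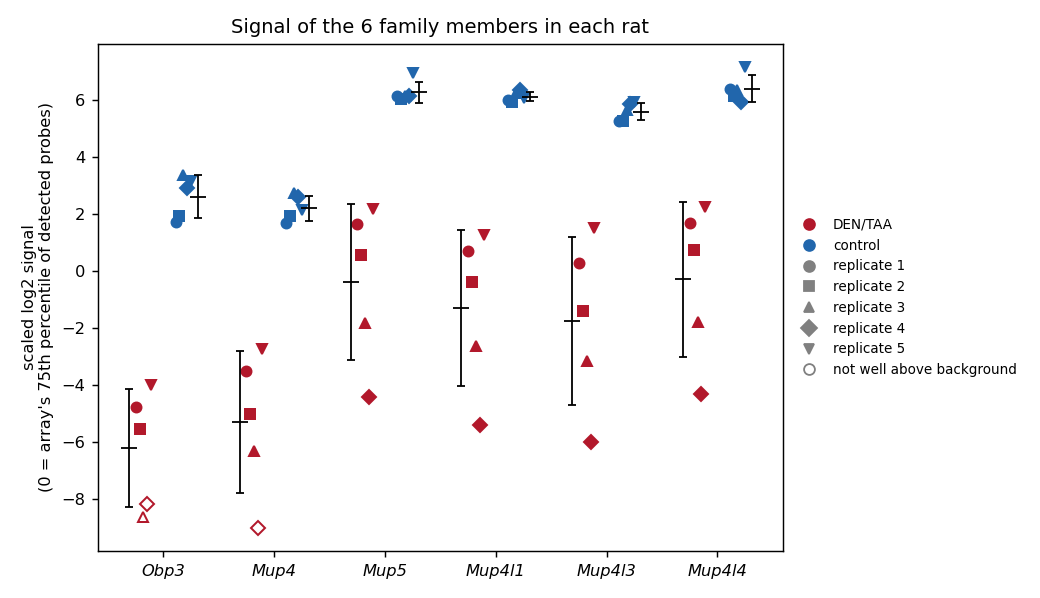
Scaled log2 signal of each member in each rat, DEN/TAA in red on the left of each gene and control in blue on the right, with 0 at the array's 75th percentile of detected probes. Symbols give the replicate, open symbols are arrays where the probe was not well above background, and bars show the mean and SD over 5 rats. No member overlaps between the groups, and the DEN/TAA rats spread over far more than the control rats.

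The distance from control differed between the DEN/TAA rats, in nearly the same order for each gene. Within a rat its size differed between genes. In rat 1 it ran from -4.65 for Mup5 to -7.41 for Obp3, which was detected there. The mean of the 6 members was 5.54, 6.73, 8.94, 11.11 and 4.80 log2 units below the control mean in DEN/TAA rats 1, 2, 3, 4 and 5, where rats 3 and 4 include undetected signals of Obp3 and rat 4 that of Mup4. Rat 5 thus kept the most signal and rat 4 the least, and the same order (5, 1, 2, 3, 4 from high to low) held for 5 of 6 members. Obp3 departed from it only in rats 3 and 4, where it was not detected. In control livers the full order of the rats differed from member to member. Control rats 1 and 2 were nonetheless the lowest for every member except Mup4l4. Over all 6844 genes tested, 1.80% had that order of DEN/TAA rats.

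The arrays lay on 3 slides, each scanned in 1 run, and the order of the DEN/TAA rats follows the slides. Slide 3 held DEN/TAA rat 5, slide 1 held rats 1 and 2, and slide 2 held rats 3 and 4. Within slides the family mean differed from the control rats of that slide by -5.80 on slide 1, -10.24 on slide 2 and -5.03 on slide 3. With slide as a block the difference was -6.85, against -7.43 (SE 1.17) without it. The value for slide 2 rests on 1 control array, that of control rat 3. Its family mean was 5.09, against 4.54 to 5.24 in the other control rats. Control rats 1 and 2, the lowest at 4.54 and 4.55, were both on slide 1. Rats 1 and 2 on slide 1 differed by 1.19 log2 units in their distance from control (5.54 and 6.73) and rats 3 and 4 on slide 2 by 2.17 (8.94 and 11.11), so the rats also differed within a slide. With 1 or 2 DEN/TAA rats per slide, slide and rat cannot be told apart for the rest of the spread.

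Markers of other cells moved with the treatment. With the scaling used here the summed hepatocyte signal, in multiples of the array's percentile, was 174 to 219 in DEN/TAA livers. It was 321 to 532 in control livers, and 5 of 6 genes were lower. The sum was 190 in DEN/TAA rat 4 and 176 in rat 5, the rats with the least and the most alpha-2u globulin signal. The size of this drop depends on the scaling. Over 6 scalings of the arrays the differences of Alb, Tf and Fgb reached up to 0.15, 0.12 and 0.24. Those of Ttr and Serpina1 stayed negative, at -2.34 to -1.11 and -1.44 to -0.23. Biliary markers summed to 0.557 to 1.00 in DEN/TAA livers and 0.0585 to 0.122 in control livers (3 of 5 tested, 3 higher, with Krt19 and Spp1 above background on no control array). Stellate and fibroblast markers summed to 3.08 to 5.01 in DEN/TAA livers against 0.679 to 0.949 in control livers (5 of 6 tested, 5 higher), and macrophage markers to 11.1 to 15.9 against 3.31 to 6.93 (6 of 6 tested, 5 higher). Endothelial markers summed to 0.566 to 0.765 in DEN/TAA livers against 0.175 to 0.305 in control livers (3 of 5 tested, 3 higher), and T and NK cell markers to 0.111 to 0.158 against 0.0199 to 0.0678 (3 of 4 tested, 3 higher). Of the 6844 genes tested, limma called 39.2% higher and 16.3% lower in DEN/TAA at an adjusted p below 0.05. With normexp background correction the genes called higher fell from 2683 to 878. The control arrays were also dimmer. The part of these marker shifts in the family's difference was not tested.

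The spread between the DEN/TAA rats is best seen in the 4 members detected on all 10 arrays. Their SD over the 5 rats was 2.74 to 2.95, against a median of 0.26 for all genes tested, and Mup4l3, Mup5, Mup4l1 and Mup4l4 held places 2 to 5 among 6844 genes. Mup4 and Obp3 had SDs of 2.49 and 2.07, and of 1.74 and 1.15 with their undetected arrays raised to the lowest signal detected. In control livers the SD of the 6 members was 0.17 to 0.74, against a median of 0.39, and their places ran only from 952 to 6275. The spread was among the values that chose the family, so these places are a description. A SD of at least 2 was found for 11 genes in DEN/TAA livers, the 6 members among them, but for 6 genes with 4 members among them once undetected signals were raised in the same way. In control livers 8 genes reached it, none of them a member. The other 5 in DEN/TAA livers were Ubd, Cyp2c11, Car3, Slc10a2 and Sult1e1, of which Ubd and Cyp2c11 stayed above 2 with the raised signals. Ubd, a ubiquitin-like protein, and Slc10a2, a bile acid carrier, are named only because their values were seen. Ubd varied as much in control livers (SD 3.16 in DEN/TAA and 3.09 in control), while Cyp2c11, the main P450 of male rat liver, did not (2.70 and 0.56).

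**Figure D3:**
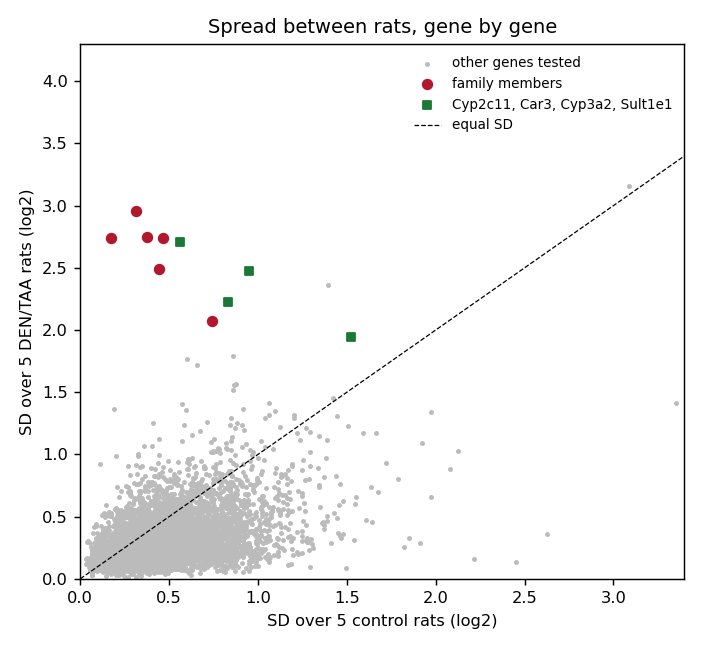
SD over 5 DEN/TAA rats (y axis) against SD over 5 control rats (x axis) in log2 units, with 1 point per gene tested and a dashed line of equal SD. The 4 members detected on all arrays lie at 2.74 to 2.95 in DEN/TAA, beside Cyp2c11, and Mup4 and Obp3, with undetected arrays, at 2.49 and 2.07 (all 6 in red). In control they lie at 0.17 to 0.74, and the median gene lies at 0.26 in DEN/TAA and 0.39 in control.

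Some members were almost copies of each other in the DEN/TAA rats. The difference Mup5 minus Mup4l4 stayed between -0.18 and -0.025 in all 5 DEN/TAA rats (SD 0.061), although each gene ranged over 96.4-fold to 99.2-fold. The SD of the difference was 0.063 for Mup5 and Mup4l1. Both pairs were looser in control livers, with SDs of 0.20 and 0.41. Over the 15 pairs of members, however, 10 were tighter in control livers than in DEN/TAA livers. Those 10 include every pair with Obp3 and some with Mup4, genes with undetected DEN/TAA arrays. Among the 4 members detected on all arrays, pairs with Mup4l3 were tighter in control livers and the others in DEN/TAA livers. Mup4l1 and Mup4l3 had SDs of 0.45 in DEN/TAA and 0.23 in control, and Obp3 and Mup4 had 1.17 in DEN/TAA and 0.43 in control. Mup4 and Mup4l3 kept less closely to the others, with SDs of 0.40 to 0.50 in DEN/TAA livers, and pairs with Obp3 gave 1.17 to 1.39, which includes its undetected arrays. This agreement was among the values that chose the family. Each gene rests on 1 probe with 1 spot, the genes are alike in sequence and the probe sequences were not used here, so how far a probe also reads its relatives cannot be told apart from genes that move together. The error estimate of the program that read the spots, Agilent Feature Extraction, was 10% to 21.0% of the signal for the 57 of 60 values well above background.

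The genes most like the family over all 10 arrays were 3 male-biased liver enzymes and 2 genes that were undetected on some or all DEN/TAA arrays. Likeness was measured as the root mean square distance between each gene's centred profile and that of the family mean. It was ranked over genes tested that are no members, leaving out placeholder symbols (LOC, RGD, MGC or Rik). Cyp2c11, which hydroxylates testosterone, was the nearest at 0.54 log2 units, then Car3 (carbonic anhydrase 3) at 1.26, Cyp3a2 at 1.29, Avpr1a at 1.46 and Lrtm2 at 1.49. The measure favours genes with a difference of the same size, so it is a description.

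Cyp2c11 read -0.77, -1.88, -3.97, -5.66 and 1.26 in DEN/TAA rats 1 to 5 against 3.62, 4.6, 4.83, 5.07 and 4.74 in control rats 1 to 5. It had the order of rats seen in the family and no overlap between the groups. The difference was -6.78 (SE 1.03), and within slides 1, 2 and 3 it was -5.44, -9.64 and -3.64. Cyp3a2, another P450 of male rat liver, read -1.05, -1.28, -2.85, -4.42 and 0.72 in DEN/TAA livers against 1.44, 3.45, 4.84, 4.72 and 5.12 in control livers, a difference of -5.69 (SE 0.92). Its DEN/TAA rats had the same order, and control rat 1 was lowest.

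Car3 was above background on 4 of 5 DEN/TAA arrays, the exception being the lowest, rat 4. It differed by -5.36 (SE 0.99; -5.67 to -3.18 over 6 scalings of the arrays), with -3.0, -3.85, -5.78, -8.57 and -2.54 in DEN/TAA livers against 0.69, 0.87, 1.70, 0.74 and -0.91 in control livers, again in the family's order. Avpr1a, a vasopressin receptor of hepatocytes, was above background on no DEN/TAA array and at least 67.8-fold lower with the scaling used here. Its measured difference was -7.13 to -2.93 over these scalings, the smallest in the authors' table. Lrtm2, above background on 3 of 5 DEN/TAA arrays, differed by -6.09 (SE 0.48), and by -6.39 to -2.86 over the same scalings. Since these genes were picked for a difference like the family's, no p-value is given for them. Cyp2c11, Car3 and Cyp3a2 also stand in the list of male-biased genes below and enter its counts.

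**Figure D4:**
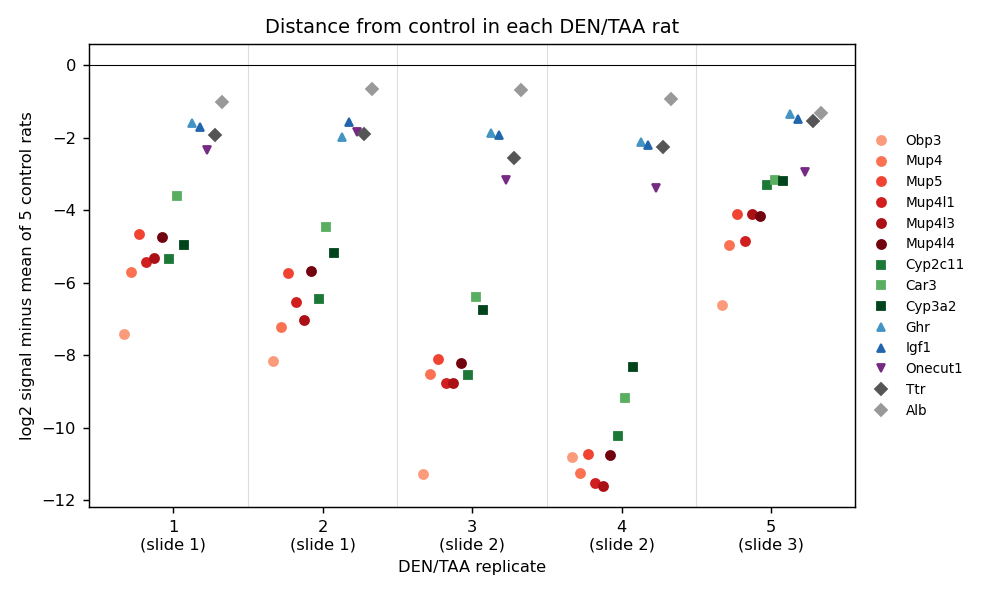
Log2 signal of each DEN/TAA rat minus the mean of the 5 control rats (line at 0), with the slide under each replicate number. Red circles are the 6 members, green squares are Cyp2c11, Car3 and Cyp3a2, and the other symbols are Ghr, Igf1, Onecut1, Ttr and Alb. Members and green genes lie highest in rat 5 and lowest in rat 4, apart from Obp3, which is lowest in rat 3. Ghr, Igf1, Ttr and Alb stay between 0 and -3 in every rat. Of these, Ghr and Igf1 also lie highest in rat 5 and lowest in rat 4.

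Hormone pathways, liver factors and secreted products related to the alpha-2u globulins were taken as 8 lists of 106 different genes, of which 81 were tested. Of all genes tested, limma called 55.5% in either direction, 39.2% higher and 16.3% lower in DEN/TAA, so shares near these say little about a list. Ranges in brackets run over 6 scalings of the arrays, for counts, medians and, where no single setting is named, genes whose difference moved by more than 1.5 times.

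Genes with male-biased expression in rat liver were lower after DEN/TAA. All 10 that were tested of 11 listed passed in that direction (8 to 10), with a median of -2.80 (-3.11 to -2.08) against 0.33 for all genes tested. The 10 include Cyp2c11, Car3 and Cyp3a2, which were named above for a profile like the family's. Cyp2a2, a steroid-hydroxylating P450, fell by 2.55 (-2.86 to -1.67, SE 0.36, limma adjusted p = 1.26e-04) and Hsd3b5, a hydroxysteroid dehydrogenase of male liver, fell by 2.83 (SE 0.41, limma adjusted p = 1.39e-04). The order of DEN/TAA rats seen in the family held for 6 of the 10 genes (Cyp2c11, Cyp2c13, Cyp3a2, Cyp3a18, Car3 and Sult1e1), and 9 of the 10 had rat 5 highest and rat 4 lowest, which 8.40% of all genes tested had. The mean of the list was -1.76, -2.23, -2.94, -4.43 and -0.89 in DEN/TAA rats 1 to 5. Rat 5 was again highest and rat 4 lowest, over a range of 3.54 log2 units.

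Genes with female-biased expression did not move as 1 group. Of 8 tested, 1 rose (1 in each scaling) and 5 fell (5 to 6), with a median of -2.23 (-2.53 to -1.57). Cyp2c12, the female-specific P450 that hydroxylates steroid sulfates, rose by 5.26 (2.99 to 5.92, SE 0.44, limma adjusted p = 2.87e-06), at -0.09, -0.11, 0.63, 0.88 and 0.42 in DEN/TAA livers against -3.08, -5.13, -5.28, -5.44 and -5.64 in control livers. The groups did not overlap, control rat 1 was the highest control, and only 2 of 5 control arrays were above background. Sult2a1, a hydroxysteroid sulfotransferase, fell by 4.21 (SE 0.44, limma adjusted p = 1.52e-05), and Cyp3a9, a P450, fell by 3.99 (SE 0.34, limma adjusted p = 3.13e-06). None of the 8 had the family's order of DEN/TAA rats.

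Among the genes of growth hormone signalling, 4 of 11 tested were higher (2 to 5) and 5 lower (4 to 6), with a median of -0.35 (-0.66 to 0.32). Ghr, the growth hormone receptor, read -0.95, -1.34, -1.23, -1.48 and -0.72 in DEN/TAA livers against 0.47, 0.59, 0.52, 1.06 and 0.56 in control livers. The groups did not overlap and the DEN/TAA rats lay within 0.76 of each other, with rat 5 highest and rat 4 lowest. Ghr fell by 1.78 (-2.09 to -1.12, SE 0.18, limma adjusted p = 1.37e-05), and its other 2 probes gave -1.32 and -1.57.

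Igf1 and Cish, both induced by growth hormone, were lower as well. Igf1, the growth factor the liver secretes, fell by 1.79 (-2.09 to -1.12, SE 0.17, limma adjusted p = 7.96e-06). Cish, a feedback inhibitor of the receptor, fell by 2.65 (-2.95 to -0.85, SE 0.26, limma adjusted p = 9.81e-06), above background on 3 of 5 DEN/TAA arrays. Jak2, the kinase bound to the receptor, rose by 1.95 (SE 0.21, limma adjusted p = 1.96e-05), but it was detected on 1 of 5 control arrays, and it differed by 0.087 with normexp (adjusted p = 0.828). Ptpn6, a phosphatase that acts on such receptors, rose by 0.79 (0.49 to 1.45, SE 0.13, limma adjusted p = 3.27e-04). Stat5b was not tested, being detected on 4 of 5 DEN/TAA but 0 of 5 control arrays, and Socs2, another feedback inhibitor, was detected on 0 of 5 DEN/TAA but 4 of 5 control arrays.

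Of the hormone receptors, 5 of 8 were tested, and 1 was higher (1 to 2) and 1 lower (0 to 3), with a median of -0.15 (-0.81 to 0.51). Nr3c1, the glucocorticoid receptor, fell by 1.07 (SE 0.19, limma adjusted p = 6.24e-04), but with spike-in scaling differed by -0.41 (adjusted p = 0.120). Nr3c2, the mineralocorticoid receptor, rose by 1.1 (SE 0.23, limma adjusted p = 0.00157), was detected on 1 of 5 control arrays, and turned to -0.47 with normexp. Its other probe, which did not pass the filter on dim probes, gave -1.36, the opposite direction. Its call also ended in the authors' table and with undetected signals raised to the floor (adjusted p = 0.0741 and 0.625).

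Enzymes of androgen and steroid metabolism were mostly lower, with 9 of 11 tested called lower (4 to 9) and 0 higher, and a median of -1.12 (-1.43 to -0.46). Srd5a1, the steroid reductase that makes dihydrotestosterone, fell by 2.35 (SE 0.46, limma adjusted p = 0.00126), and its other probe gave -1.46. Hsd17b6 fell by 2.17 (SE 0.20, limma adjusted p = 6.45e-06) and Hsd17b10 fell by 1.12 (SE 0.13, limma adjusted p = 3.32e-05), both hydroxysteroid dehydrogenases. The call of Hsd17b10 ended with spike-in scaling (-0.46, adjusted p = 0.100). Srd5a1 and Hsd3b5 stand in 2 of the lists.

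Of 14 liver transcription factors tested, 6 were lower (3 to 11) and 0 higher, with a median of -0.82 (-1.22 to -0.16). Onecut1, the HNF6 gene whose core letters stand in every member's window, read -1.83, -1.34, -2.65, -2.87 and -2.44 in DEN/TAA livers against 0.27, 0.14, -0.05, 1.13 and 1.04 in control livers. The groups did not overlap, and the DEN/TAA rats lay in another order than for the family, with rat 2 highest. It fell by 2.73 (SE 0.33, limma adjusted p = 3.91e-05). Foxa1 fell by 2.25 (-2.56 to -0.78, SE 0.33, limma adjusted p = 1.58e-04) and Cebpa, a C/EBP factor, fell by 1.75 (-2.06 to -0.65, SE 0.30, limma adjusted p = 4.87e-04), each above background on 4 of 5 DEN/TAA arrays. Hnf4a fell by 0.99 (-1.30 to -0.33, SE 0.18, limma adjusted p = 7.49e-04), a call that ended with spike-in scaling (adjusted p = 0.307). Bcl6, a repressor, fell by 1.33 (SE 0.35, limma adjusted p = 0.00693), a call that ended with spike-in scaling (-0.67, adjusted p = 0.0705) and without slide 2 (adjusted p = 0.0615, although the difference was then -1.34).

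Lipocalins outside the family went in both directions. Of 6 tested, 2 were higher (1 to 2) and 3 lower (2 to 3), with a median of -0.48 (-0.78 to 0.18). Lcn2, a lipocalin of the acute phase that binds bacterial iron carriers, rose by 5.78 (3.63 to 6.44, SE 0.83, limma adjusted p = 1.36e-04), above background on 2 of 5 control arrays. Ptgds, a prostaglandin synthase, was above background on no control array and at least 1.53-fold higher with the scaling used here. Its call ended with the control arrays raised to the floor (limma adjusted p = 0.204) and with normexp (0.43, limma adjusted p = 0.427). Apom, a carrier of lipids in lipoproteins, fell by 3.41 (SE 0.23, limma adjusted p = 8.19e-07). Ambp, the precursor of alpha-1-microglobulin, fell by 1.44 (-1.75 to -0.47, SE 0.17, limma adjusted p = 3.31e-05), and Rbp4, the retinol carrier of plasma, fell by 1.19 (-1.49 to -0.34, SE 0.16, limma adjusted p = 7.36e-05), although not with quantile normalisation (adjusted p = 0.0695).

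Plasma proteins, other secreted products of hepatocytes, were mostly lower, and their mean was nearly level among the DEN/TAA rats. Of 18 tested, 17 were lower (6 to 17) and 0 higher (0 to 2), with a median of -1.11 (-1.41 to -0.45), and -0.50 with quantile normalisation, -0.45 with spike-in scaling and -0.54 in the authors' table. The list's mean was 3.57, 3.80, 3.67, 3.73 and 3.82 in DEN/TAA rats 1 to 5, a range of 0.25 log2 units against 6.31 for the family. Rats 4 and 5, the lowest and highest for the family, were nearly level in this mean. Single genes varied more, as Ahsg from 3.09 in rat 4 to 4.16 in rat 5 and Apoh from 3.11 in rat 2 to 4.09 in rat 5. Rat 5 was highest and rat 4 lowest for 2 of the 18 genes, or 11.1%, against 8.40% of all genes tested. Ttr, the thyroid hormone carrier, fell by 2.03 (-2.34 to -1.11, SE 0.22, limma adjusted p = 1.79e-05), Apoa2, an apolipoprotein, fell by 2.63 (SE 0.18, limma adjusted p = 8.19e-07) and Itih3, a heavy chain of inter-alpha-trypsin inhibitor, fell by 2.06 (SE 0.17, limma adjusted p = 2.59e-06). Albumin (Alb) fell by 0.92 (SE 0.25, limma adjusted p = 0.00936), a call that ended with quantile normalisation (0.15), spike-in scaling (-0.26), the authors' table (-0.15) and without slide 2 (adjusted p = 0.0546, although the difference was then -1.01).

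**Figure D5:**
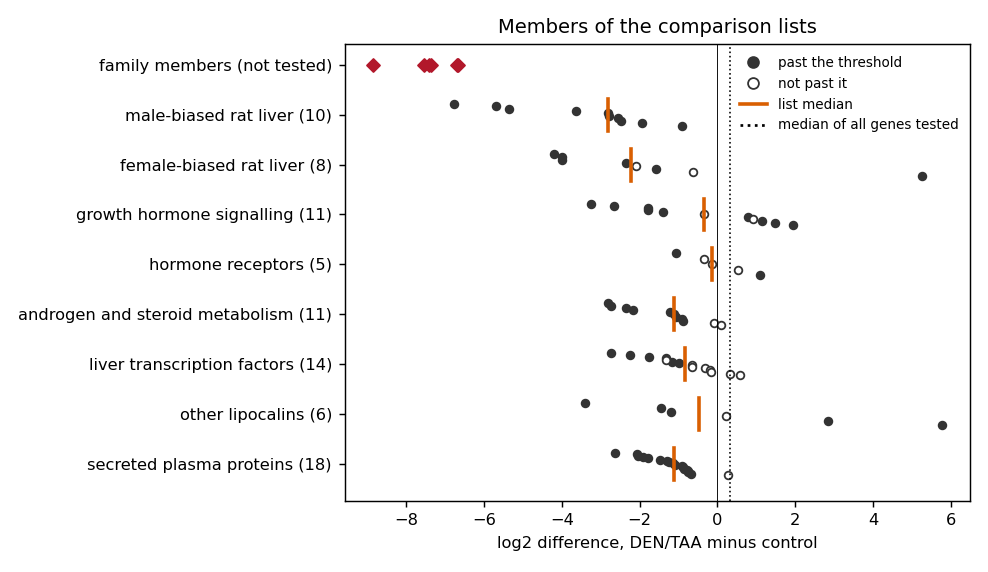
Log2 difference, DEN/TAA minus control, of each gene tested in 8 lists, with the number tested in brackets. Filled points passed limma's adjusted threshold of 0.05, open ones did not, orange bars are list medians and the dotted line is the median of all genes tested, 0.33. The 6 members (diamonds, not tested) lie from -8.85 to -6.67, and the male-biased list has the lowest median, -2.80.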

How the data were processed

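Liver RNA of 5 DEN/TAA and 5 control rats was measured with 1 array each. The deposited scanner files hold spot intensity, background-subtracted within the array by the program Agilent Feature Extraction, whose version reads 11.5.1.1 per the file headers and 15.5 per the submitters' processing notes. A second deposited table holds the authors' log2 values. Its columns rank the probes as each array's raw median intensity does and have medians of 8.592 to 8.594, so scale and direction are known, while how it was made was not given in the sources used here.

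Control spots and 917 outlier spots were left out, spots of a probe were averaged, and the 75th percentile over the 6229 probes well above background on all arrays was subtracted from each log2 processed signal. No spot was saturated (0 spots). Probes were kept when well above background on at least 5 of 10 arrays. Accessions were matched without versions to RefSeq genes of GRCr8, which gave 1 symbol to 17493 of 41012 probes, several to 0 and none to 23519. The brightest passing probe stood for a gene. Differences were fitted with limma 3.58.1 in R 4.3.3 (two-sided, Benjamini-Hochberg over 6844 genes, threshold 0.05), checked on simulated data. The p-values measure the spread between these rats. Members get no p. A gene above background on no array of a group is given as a bound, at least N-fold, against the lowest signal detected on each of those arrays. Promoters were aligned with Biopython 1.88.

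The members and lists were chosen with earlier results of these data known. Genes named are all members, the sentinels of each list, and the 2 called genes per direction and list with the smallest adjusted p. The 5 nearest in profile, with placeholder symbols left out, are named as well. Of the genes so named, 2 are not reported here. A further rule, probes annotated as alpha-2u globulin but without a matching symbol, was not used here because the array annotation was not analysed. Alternatives were normexp (offset 50) on raw signals, quantile normalisation, the percentile over all probes, 5 spike-in probes, the authors' table, other filters, the mean over probes, undetected signals raised to the floor, slide and replicate blocks, and leaving out each rat. Leaving out slide 2 and the 2 dimmest control arrays was added after seeing the data.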

Additional observations from a re-analysis of the deposited data

Results flagged for a closer look

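For 82 sets of 5 rats (each gene reported here and the family mean, in each group), the gap between the most extreme rat and its neighbour was divided by the range, and 4 sets passed Dixon's critical value of 0.71. Chance flags about 1 in 20 groups. Mup5 was the only member among them: control rat 5 was the highest control at 6.96, with the next at 6.17, a ratio of 0.856, and it was also the control array with the fewest spots above background, 16.5%. Ghr was highest in control rat 4 (1.06, the next at 0.59, ratio 0.790). Cyp2c12 was highest in control rat 1 (-3.08, the next at -5.13, ratio 0.802). Cebpa was lowest in control rat 5 (-5.0, the next at -3.72, ratio 0.752).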

How the results depend on the processing

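The mean difference of the 6 genes, -7.43, kept its sign in all 26 alternative settings. Equal weights for member probes and the mean over probes could not change it, since each member has 1 probe. Nor could the replicate block, since each replicate number occurs once in each group. It was -10.24 within slide 2 and -5.03 within slide 3, and ranged from -8.08 to -6.50 when 1 rat was left out. With normexp it was -6.76, with quantile normalisation -7.05, with spike-in scaling -6.77 and in the authors' table -5.66. Without slide 2, chosen after seeing the data, it was -5.64. Over the settings Obp3 ranged from -11.79 to -5.54, Mup4 from -10.41 to -4.98, Mup5 from -9.29 to -4.37, Mup4l1 from -10.27 to -4.95, Mup4l3 from -10.25 to -4.41 and Mup4l4 from -9.44 to -4.30. The order of DEN/TAA rats for the family mean was the same under all 8 ways of making the values. Among these, the mean over probes could not differ from the main values. The range was 3.5 log2 units in the authors' table to 6.64 with spike-in scaling.

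The genes called over the whole array numbered 3798, and 3326 to 3825 with 1 rat left out. They numbered 8388 with no filter on dim probes (2589 higher, 5799 lower), 2095 with a filter on all 10 arrays and 2531 without slide 2. Higher genes made up 70.6% of calls, against 31.1% with normexp, 58.9% with quantile normalisation, 50.3% with the percentile over all probes, 91.8% with spike-in scaling and 60.8% in the authors' table, 59.6% with the floor, 30.9% with no filter and 55.0% with the strictest filter.

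The median of the growth hormone list turned to 0.32 with spike-in scaling, that of the hormone receptors to 0.51 with spike-in scaling and 0.091 in the authors' table, and that of the other lipocalins to 0.11, 0.18 and 0.063 with quantile normalisation, spike-in scaling and the authors' table. Among single genes Nr3c2 turned to -0.47 with normexp and Alb to 0.15 with quantile normalisation. The cause was not tested.

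Replicate numbers did not pair the rats: the deviations of same-numbered rats correlated at 0.0874, 0.100, 0.205, -0.217 and 0.111. With the replicate block the family difference was -7.43 and 3800 genes were called. The block changed the call of no single gene reported here. Depth limits Obp3 and Mup4 in the lowest DEN/TAA rats and all genes that were dim on the control arrays.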
